A study of Mus musculus with 18 samples.

Results

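The axonal transcriptome of mouse motoneurons depleted of Smn was compared with that of motoneurons carrying an empty vector. The comparison takes 6 of the 18 arrays of the series by their labels, 3 axonal Smn knockdown arrays and 3 axonal empty vector arrays. Motoneurons came from spinal cords of E12.5 mouse embryos and were enriched by panning for the p75 neurotrophin receptor. Knockdown cultures received a lentivirus that expresses a short hairpin RNA against Smn, empty vector cultures received the vector alone, and wild-type cultures received no virus. All cells grew for 7 days on one side of a microfluidic chamber, a device whose narrow channels let axons but not cell bodies pass. The axonal chamber alone received BDNF (20 ng/ml), and CNTF (5 ng/ml) was present throughout. Axonal and somatodendritic RNA was extracted separately, amplified linearly in 2 rounds, labelled with biotin and hybridised to Affymetrix mouse whole-genome arrays. The labels give no strain or sex, no share of infected cells and no purity of the panned cells, and they leave unsaid whether replicate arrays stem from separate cultures, so p-values measure the spread between arrays, which may be technical.

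Smn, the survival motor neuron protein, works in a complex that assembles the small nuclear ribonucleoproteins of the spliceosome, and it also travels in axons with RNA-binding proteins. Loss of the human gene SMN1 causes spinal muscular atrophy, in which motoneurons degenerate. Motoneuron axons hold messenger RNAs of their own that are translated locally, among them RNAs for ribosomal, mitochondrial and cytoskeletal proteins. The comparison asks which of these axonal RNAs differ when Smn is depleted, as far as the series title states its purpose.

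Each gene was read by 1 probe set, the one with the highest mean over the 18 arrays among those with 1 symbol, which gave 18191 genes. Values are the authors' log2 signals, so a difference of 1 is a factor of 2. The background level of an array was taken from 231 probe sets of genes expressed in absent tissues, such as olfactory receptors, as their 95th percentile. A gene is called above background in a group if all 3 arrays exceed their own level. Where only 1 group did, the fold is a lower bound against the level, written "at least". Below that level, values have no order and no fold is given. The test was limma over all genes on the 9 axonal arrays, wild-type included, with Benjamini-Hochberg adjustment and a threshold of 0.05.

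The knockdown arrays registered fewer genes. They had 3487, 5718 and 5772 genes above background, against 8175, 5920 and 8323 on the empty vector arrays and 7944 to 8783 on the axonal wild-type arrays. Knockdown replicate 1 was the lowest, and empty vector replicate 2 was close to the other knockdown arrays. The background level was 8.27, 7.47 and 7.47 on the knockdown arrays, against 6.88, 7.41 and 6.82 on the empty vector arrays, with no overlap (two-sided exact permutation p = 0.1, the smallest that 3 against 3 arrays allow). Correlation over genes with the somatodendritic control arrays was 0.539, 0.712 and 0.658 for the knockdown arrays, against 0.847, 0.705 and 0.884 for the empty vector arrays (exact permutation p = 0.2). The spike controls BioC and BioD averaged 13.70, 13.38 and 13.39 on the knockdown arrays, against 13.27, 14.19 and 12.75 on the empty vector arrays, and overlapped. Nor did the 3' minus 5' difference of Gapdh separate the groups, at 2.80 to 3.60 on the knockdown arrays and 1.44 to 3.91 on the empty vector arrays. How far these array properties enter the differences below was not tested. In bulk RNA, fewer axons in the chamber and less RNA per axon cannot be told apart.

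**Figure D1:**
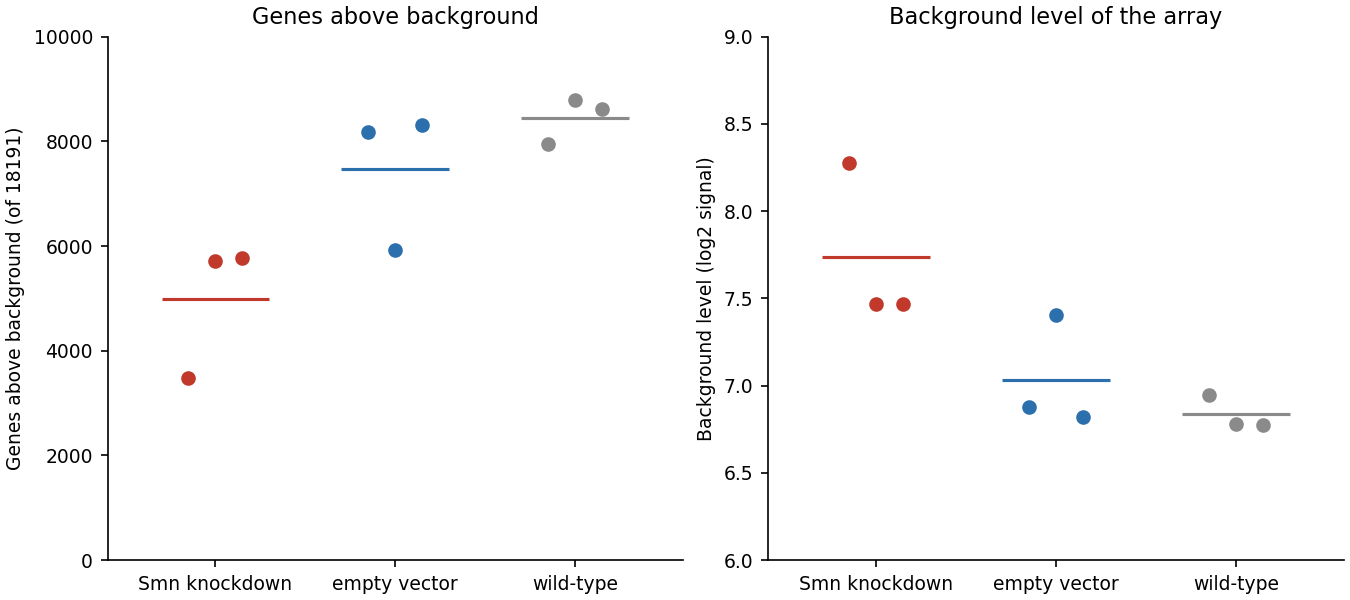
Genes above background (left, number of 18191 genes) and background level (right, log2 signal) on each axonal array. Points are arrays and horizontal lines are group means. The 3 knockdown arrays lie between 3487 and 5772 genes, below all empty vector arrays (5920 to 8323), and their background levels of 7.47 to 8.27 lie above all others.

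Across the 3 arrays of a group, 2543 genes were above background on all knockdown arrays and 4671 on all empty vector arrays. Both conditions held for 2038 genes. Another 533 genes (2.93% of all tested) were above background on every empty vector array and on no knockdown array, and 39 genes (0.214%) on every knockdown array and no empty vector array. Over all genes the median log2 difference was 0.06, and over the 5176 genes above background in at least 1 group it was -0.15. Centring each array on the 1990 genes above background on all 9 axonal arrays moved the median over all genes to -0.34. The median SD over the 5176 genes was 0.679 on knockdown and 0.544 on empty vector arrays, against 0.0781 on the somatodendritic knockdown arrays.

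Smn1, the target of the hairpin, could not serve as a check. Its probe set read 5.76, 5.23 and 4.96 on the knockdown arrays, against 7.01, 5.26 and 5.66 on the empty vector arrays and 5.70, 5.54 and 5.72 on the wild-type arrays. Of the 6 arrays compared, empty vector replicate 1 alone was above background. The difference was -0.66 (SE 0.45, limma adjusted p = 0.486), and a change of Smn1 was not detectable at this signal. The cell type was checked with markers of cholinergic motoneurons. Of 15, only 3 (the intermediate filament Prph, the GDNF receptor Ret and the transcription factor Foxp1) were above background on all 9 somatodendritic arrays, and Chat, which makes acetylcholine, was on none of them. On the 6 axonal arrays compared, 9 of the 15 were never above background, including Chat, Slc18a3, Isl1 and Mnx1. Prph was above background on all 6.

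Limma called 32 genes (0.176% of 18191), 29 lower (0.159%) and 3 higher (0.0165%) in knockdown axons, with adjusted p from 0.00569 to 0.0475. Most of the falls were of RNAs above background in empty vector axons and not in knockdown axons. Of the 29, 27 were above background on every empty vector array and 24 on every wild-type array, and 27 were above background on no knockdown array. Knockdown and empty vector arrays did not overlap in any of the 32. These were picked by p on the same arrays, so their separation is no further support. Of all genes, 13.3% did not overlap with knockdown higher and 8.43% with knockdown lower. Among the 5176 genes above background in at least 1 group these shares were 17.5% and 16.9%, and 17.2% were higher and 17% lower at unadjusted p under 0.05. The calls rest on the wild-type arrays as well: a fit to the 6 arrays alone called 0 genes (2638 at unadjusted p under 0.05, limma), and so did the fit with the title number as a block (3055). Leaving out knockdown replicate 1, 2 or 3 left 3, 190 and 4 calls, leaving out empty vector replicate 1, 2 or 3 left 4, 13 and 1, and leaving out wild-type replicate 1, 2 or 3 left 28, 10 and 3.

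**Figure D2:**
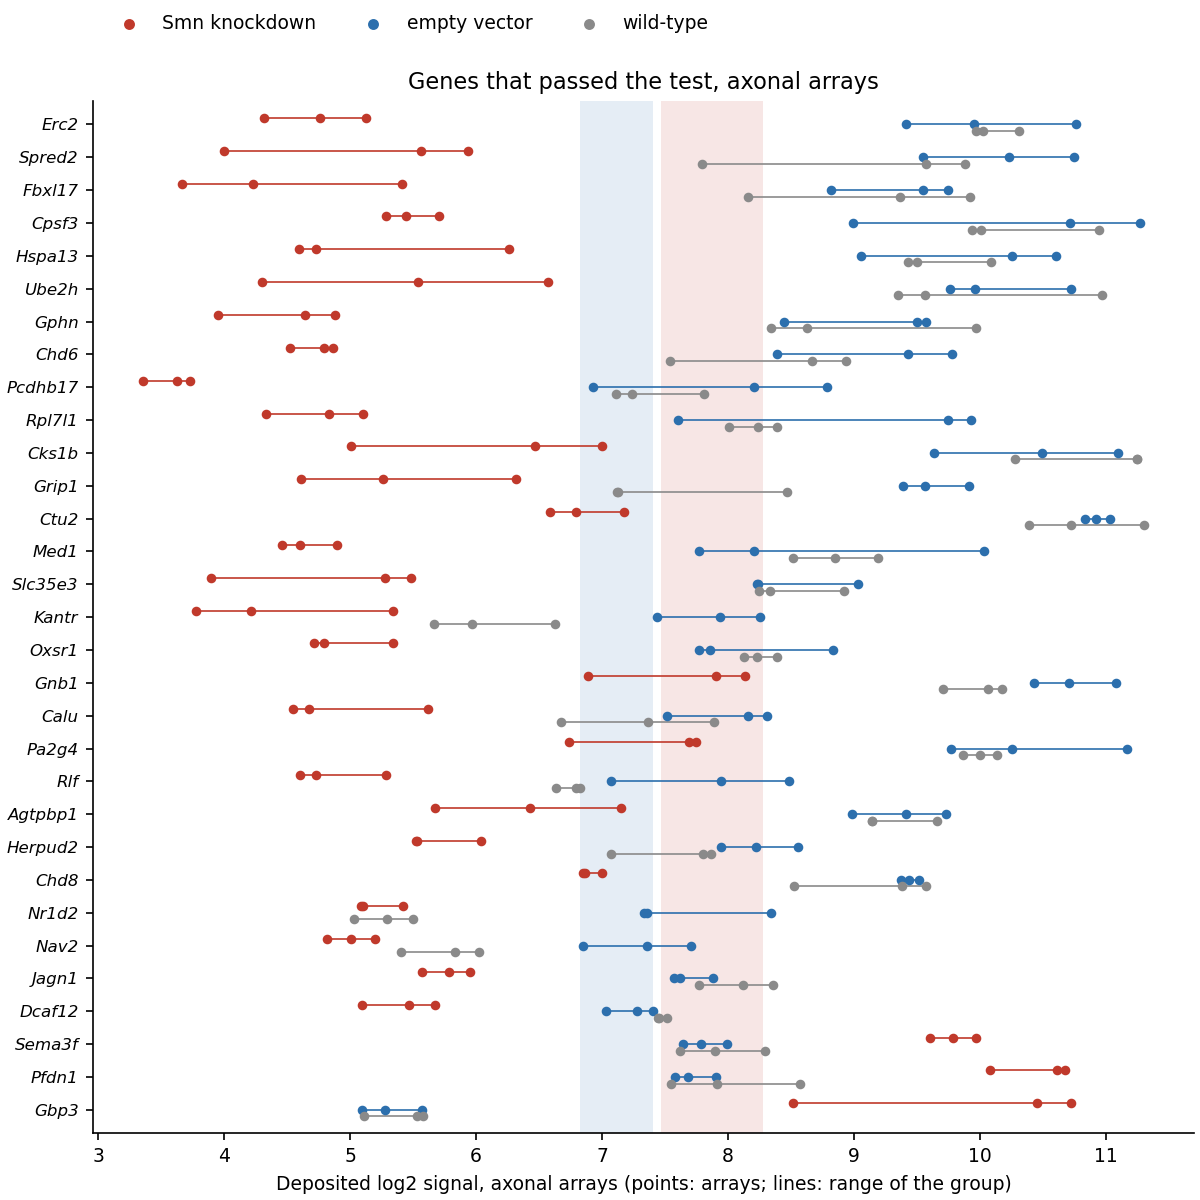
Deposited log2 signal of the 31 named genes that passed the test (1 more has a clone-like name) on the 9 axonal arrays. Points are arrays, lines span a group, and shaded bands give the range of background levels on the knockdown (red) and empty vector (blue) arrays. Knockdown points of 28 genes lie left of the empty vector points, and those of Gbp3, Pfdn1 and Sema3f lie right of them.

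Among synaptic and cell-surface genes the call with the lowest p was Erc2, which scaffolds the release sites of presynaptic terminals and binds RIM proteins. Erc2 read 5.12, 4.31 and 4.76 on the knockdown arrays, against 9.95, 9.42 and 10.76 on the empty vector arrays and 9.97, 10.31 and 10.02 on the wild-type arrays. All knockdown values were below background, and Erc2 fell at least 4.94-fold (difference -5.31, SE 0.39, limma adjusted p = 0.00569). Erc2 kept its call in 20 of 23 alternative settings, more than any other of the 32 genes. It lost the call with the 6 arrays alone, with the title number as a block, and with values below background set to background. Gphn encodes gephyrin, which anchors glycine and GABA receptors. Gphn read 3.95, 4.88 and 4.64 on the knockdown arrays, against 9.57, 8.44 and 9.50 on the empty vector arrays, and fell at least 2.7-fold (difference -4.68, SE 0.52, adjusted p = 0.0376). A second Gphn probe set gave 4.48, 5.49 and 5.35 on knockdown arrays against 7.56, 8.51 and 7.66 on empty vector arrays, again without overlap. Grip1, a PDZ protein that binds AMPA receptors and kinesin, read 6.32, 5.26 and 4.61 on the knockdown arrays, against 9.39, 9.92 and 9.57 on the empty vector arrays, at least 3.7-fold lower. Its wild-type arrays were between the groups, at 7.13, 8.47 and 7.12. Pcdhb17, a beta protocadherin of the neuronal surface, read 3.36, 3.63 and 3.73 on the knockdown arrays, against 6.93, 8.79 and 8.20 on the empty vector arrays. Its empty vector signal was close to background, so that the bound was only 1.18-fold.

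RNA metabolism contributed 4 protein-coding falls and 1 noncoding one. Ctu2, which thiolates the wobble base of transfer RNAs, kept its call in 18 of 23 alternative settings. It read 6.79, 7.17 and 6.59 on the knockdown arrays, against 10.84, 11.03 and 10.92 on the empty vector arrays and 11.30, 10.39 and 10.73 on the wild-type arrays, at least 9.14-fold lower (difference -4.08, SE 0.31, adjusted p = 0.00569). This probe set is of a class that may read several similar transcripts, and the other Ctu2 probe set, on no knockdown array and 2 empty vector arrays above background, differed by -0.66 with overlapping groups. Cpsf3, the nuclease that cuts pre-mRNA before polyadenylation, read 5.28, 5.71 and 5.44 on the knockdown arrays, against 10.71, 8.99 and 11.27 on the empty vector arrays, at least 6.02-fold lower. Every knockdown array was below background and every empty vector array above it. The Cpsf3 probe set is of the same class as that of Ctu2, as are those standing for Pa2g4, Ube2h and Sema3f. Another Cpsf3 probe set, above background on 2 empty vector arrays and no knockdown array, was lower by 2.43 without overlap. A further one, above background on none of the 6 arrays, was higher by 1.69 without overlap. Pa2g4, a growth-regulated RNA-binding protein, read 7.75, 7.69 and 6.73 on the knockdown arrays, against 9.77, 10.26 and 11.17 on the empty vector arrays, at least 6.01-fold lower, with 1 of 3 knockdown arrays above background. Of its other probe sets above background, 1 did not overlap in the same direction (-1.51) and 1 overlapped (-0.56). Rpl7l1, a relative of ribosomal protein L7, read 4.83, 5.10 and 4.33 on the knockdown arrays, against 9.93, 7.60 and 9.75 on the empty vector arrays. A second Rpl7l1 probe set differed by 0.43, with overlapping groups, so this fall holds for 1 of its probe sets. The long noncoding RNA Kantr read 4.21, 5.34 and 3.78 on the knockdown arrays, against 8.26, 7.94 and 7.43 on the empty vector arrays, while the wild-type arrays stood between, at 5.67, 5.97 and 6.63, and were below background.

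Genes of chromatin, transcription and the cell cycle machinery made up another group. Chd6 and Chd8 are ATP-dependent chromatin remodellers of the CHD family. Chd6 read 4.86, 4.52 and 4.80 on the knockdown arrays, against 8.39, 9.43 and 9.78 on the empty vector arrays, at least 2.75-fold lower. Chd8 read 6.999, 6.86 and 6.84 on the knockdown arrays, against 9.38, 9.44 and 9.51 on the empty vector arrays, at least 3.26-fold lower (difference -2.54, SE 0.31, adjusted p = 0.0376). The Chd8 empty vector values lay close together, while all Chd8 knockdown values were below background and have no order. Another Chd8 probe set, above background on no array of either group, was higher by 1.04 without overlap. Of the 10 CHD genes measured Chd6 and Chd8 fell. Chd4, the remodeller of the NuRD complex, read 9.18, 9.12 and 9.09 on the knockdown arrays, against 7.54, 8.02 and 6.94 on the empty vector arrays (3.09-fold higher, limma adjusted p = 0.0742). Med1, a Mediator subunit, fell at least 1.91-fold, though a second probe set above background overlapped (-0.67). Cks1b, which binds cyclin-dependent kinases, read 6.999, 6.47 and 5.004 on the knockdown arrays, against 10.49, 11.09 and 9.64 on the empty vector arrays, at least 6.37-fold lower. The zinc finger gene Rlf fell by 2.96 with a bound of 1.07-fold, and its direction turned with the probe set brightest in axons (1.04). Nr1d2, a clock repressor, read 5.42, 5.10 and 5.09 on the knockdown arrays, against 7.36, 8.34 and 7.33 on the empty vector arrays and 5.30, 5.03 and 5.50 on the wild-type arrays. Its knockdown and wild-type arrays overlapped, and no fold is given because the mean background of the knockdown arrays exceeds the mean empty vector signal.

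Protein folding and degradation genes included falls and 1 rise. Hspa13, an Hsp70 relative of the endoplasmic reticulum, read 4.59, 6.26 and 4.73 on the knockdown arrays, against 9.06, 10.60 and 10.26 on the empty vector arrays, at least 4.71-fold lower. Ube2h, a ubiquitin-conjugating enzyme, read 5.54, 6.57 and 4.30 on the knockdown arrays, against 10.73, 9.76 and 9.96 on the empty vector arrays, at least 5.32-fold lower. Another Ube2h probe set was lower by 1.23 and a further one higher by 0.25, both without overlap. Fbxl17, the substrate receptor of a ubiquitin ligase, read 5.41, 3.66 and 4.22 on the knockdown arrays, against 9.75, 9.55 and 8.81 on the empty vector arrays, at least 3.11-fold lower. Pfdn1, a subunit of the prefoldin chaperone that hands actin and tubulin to chaperonin, went the other way. It read 10.68, 10.61 and 10.08 on the knockdown arrays, against 7.90, 7.58 and 7.68 on the empty vector arrays and 8.57, 7.91 and 7.55 on the wild-type arrays, and rose 6.66-fold (difference 2.74, SE 0.33, adjusted p = 0.0376). Both groups were above background, and the lowest knockdown array exceeded the highest wild-type array.

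Among signalling and cytoskeletal genes, Gnb1, the beta subunit of heterotrimeric G proteins, read 6.89, 8.14 and 7.90 on the knockdown arrays, against 10.70, 11.08 and 10.43 on the empty vector arrays. It was above background on 2 of 3 knockdown arrays and fell at least 6.2-fold (difference -3.09, SE 0.38, adjusted p = 0.0376). Spred2, which restrains Ras signalling, read 4.002, 5.56 and 5.93 on the knockdown arrays, against 9.55, 10.75 and 10.23 on the empty vector arrays, at least 5.42-fold lower. A second Spred2 probe set was higher by 1.04 without overlap, so the probe sets of this gene disagree. Agtpbp1, which trims glutamates from tubulin and whose loss kills Purkinje cells in mice, read 6.43, 7.15 and 5.68 on the knockdown arrays, against 9.41, 9.73 and 8.99 on the empty vector arrays. It fell at least 3.11-fold, and its wild-type arrays, at 9.14, 9.14 and 9.66, were near the empty vector arrays. Sema3f, a secreted guidance cue that repels axons through neuropilin receptors, was the third rise. It read 9.97, 9.78 and 9.60 on the knockdown arrays, against 7.78, 7.99 and 7.64 on the empty vector arrays and 8.29, 7.62 and 7.89 on the wild-type arrays. The rise was 3.94-fold (difference 1.98, SE 0.27, adjusted p = 0.0447), and a second Sema3f probe set was higher by 1.67 without overlap.

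The other falls lay nearer to background. The kinase gene Oxsr1, which controls ion cotransporters, fell at least 1.33-fold, the solute carrier Slc35e3 at least 1.7-fold, Herpud2 at least 1.42-fold and Calu, a calcium-binding protein of the secretory pathway, at least 1.19-fold. With the probe set brightest in axons Herpud2 was at 0.21. Nav2 (a microtubule-associated navigator protein), Jagn1 (a protein of the endoplasmic reticulum) and Dcaf12 (a ubiquitin ligase adaptor) had differences of -2.30, -1.92 and -1.82. Their empty vector signals, at most 7.88, did not exceed all knockdown background levels, and with values below background set to background their differences turned to 0.25, 0.05 and 0.38. No fold is given for them. The clone-like C330007P06Rik also fell.

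Genes above background on every array of 1 group and on no array of the other were ranked by their difference, which adds 9 genes that were not called. On the side of empty vector these were Lemd1, Erc2, Minar2, Ppp1r13b, Negr1 and Spred2. Ppp1r13b, a p53-binding protein, read 4.76, 5.09 and 4.39 on the knockdown arrays, against 10.27, 9.20 and 10.40 on the empty vector arrays (at least 4.66-fold, adjusted p = 0.0636). Negr1, a neuronal adhesion molecule, read 5.02, 4.37 and 4.28 on the knockdown arrays, against 9.88, 11.53 and 7.41 on the empty vector arrays (at least 3.66-fold, adjusted p = 0.0765). Minar2 read 8.05, 3.81 and 3.73 on the knockdown arrays, against 10.81, 11.06 and 9.45 on the empty vector arrays (at least 6.51-fold, adjusted p = 0.0853), with knockdown replicate 1 apart from the other two. For Lemd1 it was the wild-type group that spread, at 3.41, 10.20 and 9.94, beside 5.81, 3.84 and 3.23 on the knockdown arrays and 8.96, 10.69 and 9.35 on the empty vector arrays (adjusted p = 0.154). On the side of the knockdown these were Ctss, Bcan, Gbp3, Ifi27l2a, Rtp4 and Lgals3. Ctss, a lysosomal protease of microglia, read 12.57, 10.15 and 7.92 on the knockdown arrays, against 5.79, 4.68 and 4.71 on the empty vector arrays, but 12.53, 9.12 and 8.24 on the wild-type arrays. Lgals3, a lectin of activated macrophages, read 11.84, 8.65 and 9.56 on the knockdown arrays, against 6.56, 6.86 and 5.56 on the empty vector arrays and 12.55, 10.37 and 8.26 on the wild-type arrays. For both, the empty vector arrays stood apart and the knockdown arrays overlapped with wild-type. Bcan, a proteoglycan of neural extracellular matrix, read 8.77, 9.88 and 10.98 on the knockdown arrays, against 5.34, 5.59 and 4.58 on the empty vector arrays (adjusted p = 0.0579), and 7.56, 9.38 and 6.79 on the wild-type arrays. Ifi27l2a, an interferon-induced gene, read 10.49, 9.38 and 10.08 on the knockdown arrays, against 6.17, 6.09 and 5.73 on the empty vector arrays and 9.08, 6.23 and 5.98 on the wild-type arrays (at least 7.71-fold against empty vector, adjusted p = 0.0711). Wild-type replicate 1 alone of its group was above background.

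Interferon-induced genes had the largest positive median among the pathway lists examined. Interferons act through STAT and IRF factors that bind the interferon-stimulated response element, and they turn on antiviral and antigen-presenting genes. The element was searched as GAAA, any 2 bases and GAAA, on both strands, in RefSeq promoter windows of build GRCm38.p6, which end shortly after the transcription start. It was in 18 of 34 interferon-induced genes with a window (52.9%), in 3.63% of all genes tested with one, and in 0 of 27 called falls. The windows of Gbp3 (chr3:142559794-142560093, plus strand) and Rsad2 (chr12:26456403-26456702, minus strand) are shown because Gbp3 passed the test and Rsad2 was above background on all knockdown arrays, and both held a match. They are written along the gene, with matched bases in capitals, which here read as the reverse complement of the element.
Gbp3: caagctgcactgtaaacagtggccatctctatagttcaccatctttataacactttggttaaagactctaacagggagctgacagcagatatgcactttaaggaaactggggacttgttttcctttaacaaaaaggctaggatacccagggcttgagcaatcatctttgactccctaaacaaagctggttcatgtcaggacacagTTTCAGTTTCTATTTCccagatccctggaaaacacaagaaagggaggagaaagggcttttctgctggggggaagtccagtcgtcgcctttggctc
Rsad2: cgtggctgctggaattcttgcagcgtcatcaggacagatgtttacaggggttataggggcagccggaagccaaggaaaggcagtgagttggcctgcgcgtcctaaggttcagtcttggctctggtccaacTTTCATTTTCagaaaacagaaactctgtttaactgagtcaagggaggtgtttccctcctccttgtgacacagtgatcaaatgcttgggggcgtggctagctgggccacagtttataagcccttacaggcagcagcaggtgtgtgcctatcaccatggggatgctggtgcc
Gbp3 had 2 windows, of which 1 is shown, with windows that hold a match taken first. The Gbp3 window shown held 2 overlapping matches, the first starting 45 bases before the transcription start. The Rsad2 window held 1, starting 120 bases before the transcription start. The Irf7 window held none, which says only that these letters are not in it.

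Gbp3, a guanylate-binding GTPase that attacks pathogen compartments, read 10.73, 8.51 and 10.45 on the knockdown arrays, against 5.28, 5.10 and 5.57 on the empty vector arrays and 5.11, 5.58 and 5.53 on the wild-type arrays. It rose at least 7.27-fold (difference 4.58, SE 0.54, limma adjusted p = 0.0376) and was the only one of 44 interferon-induced genes to pass the test, against 0.0165% of all genes called higher. Rtp4, a chaperone of membrane receptors, read 10.72, 7.77 and 9.56 on the knockdown arrays, against 5.79, 5.12 and 5.32 on the empty vector arrays (at least 4.98-fold, adjusted p = 0.0636). In both genes replicate 2 was the lowest knockdown array. Rsad2, the antiviral enzyme viperin, read 13.19, 10.74 and 9.33 on the knockdown arrays, against 7.12, 6.54 and 7.01 on the empty vector arrays (at least 15-fold, adjusted p = 0.0719), of which 2 of 3 were above background. Irf7, a transcription factor that amplifies the interferon response, read 9.63, 8.09 and 8.19 on the knockdown arrays, against 5.97, 6.68 and 6.21 on the empty vector arrays (at least 3.04-fold, adjusted p = 0.0711). None of these values overlapped between the groups. Of the 44 genes, 11 were above background on all knockdown arrays and 2 on all empty vector arrays, and 19 on none of the 6 arrays. At unadjusted p under 0.05, 22 were higher, against 10.9% of all genes, and 0 lower, against 7.37%. Centring the arrays changed the split over all genes to 637 higher and 2776 lower, from 1978 and 1340. The median difference of the list was 1.14 against empty vector and 0.81 against wild-type arrays, beside 0.06 and 0.03 over all genes. These medians take in members below background. With values below background set to background, the list median was 0.77, beside 0.70 over all genes. Of the 194 genes that define the background, 19.6% did not overlap with knockdown higher and 2.58% with knockdown lower. The somatodendritic median was 3.03, and all 44 were called higher there.

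**Figure D3:**
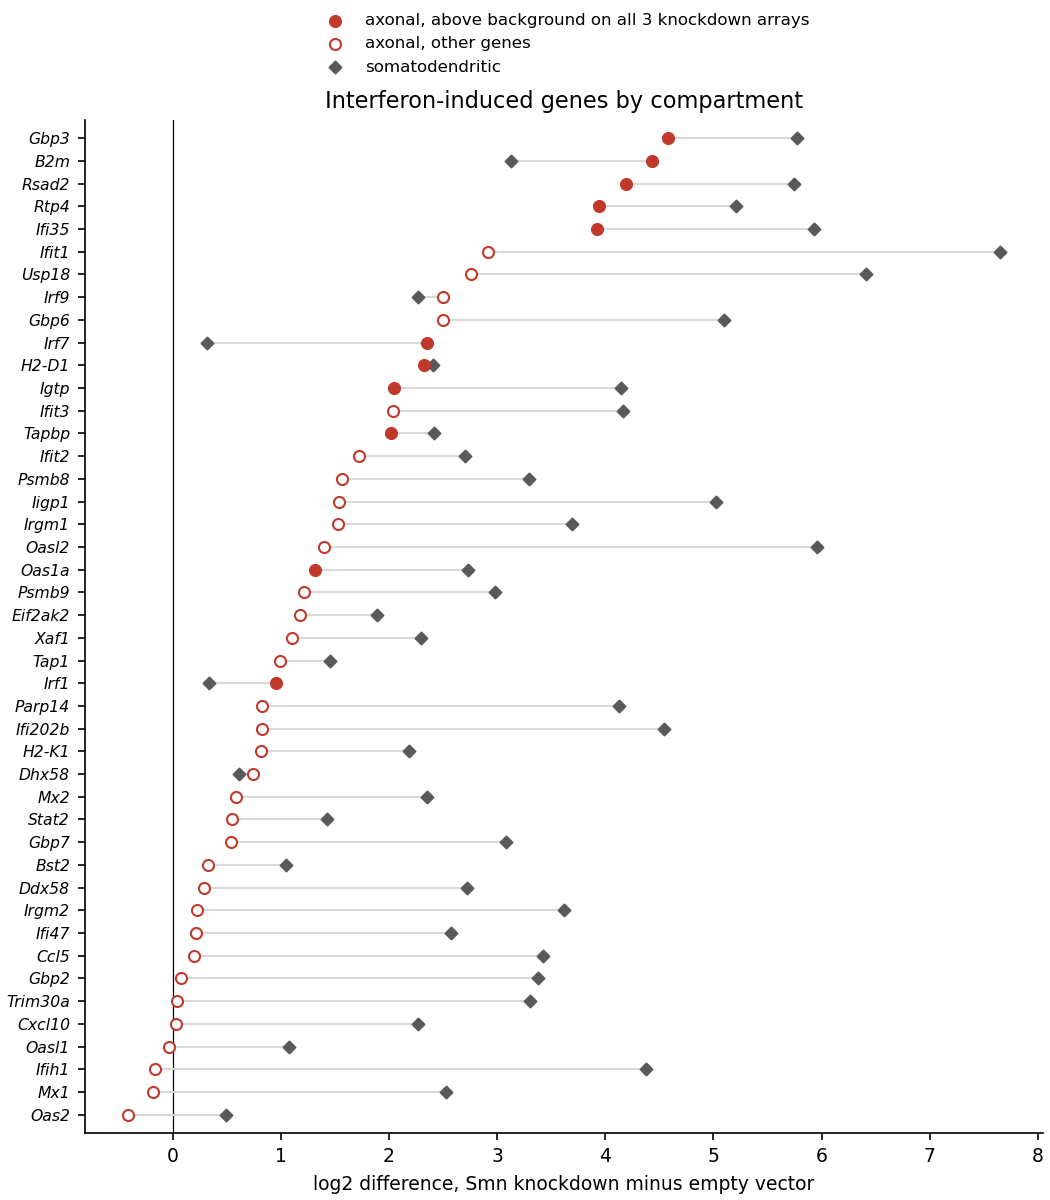
Log2 difference, Smn knockdown minus empty vector, of the 44 interferon-induced genes in axonal (red circles) and somatodendritic (grey diamonds) arrays. Filled circles are the 11 genes above background on all 3 axonal knockdown arrays. Axonal differences run between -0.41 for Oas2 and 4.58 for Gbp3, and most lie left of the somatodendritic ones.

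Genes of synapses, channels and axon growth had negative medians, which take in members below background. With values below background set to background, where the higher background of the knockdown arrays enters, the median over all genes was 0.70. It was then -0.12 for the active zone and synaptic vesicle, -0.35 for the inhibitory postsynapse and 0.41 for glutamate receptors and scaffolds. For axon growth and guidance it was 0.11, and for voltage-gated channels 0.08. Of 47 genes of the active zone and synaptic vesicle 12 were above background on all knockdown arrays and 30 on all empty vector arrays, and the median was -0.54 against empty vector as against wild-type. At unadjusted p 9 were lower and 1 higher. Among the 31 that were above background in at least 1 group 7 were lower and 1 higher, beside 17% and 17.2% of all such genes, so that the count lower is not far from that share. Pclo, the giant scaffold piccolo of the active zone, read 5.33, 5.76 and 5.43 on the knockdown arrays, against 8.86, 8.81 and 7.38 on the empty vector arrays (at least 1.53-fold, adjusted p = 0.0636). Synj1, which uncoats endocytosed vesicles, read 6.80, 9.17 and 8.08 on the knockdown arrays, against 11.09, 11.88 and 10.80 on the empty vector arrays (adjusted p = 0.0647), with 2 of 3 knockdown arrays above background. Syn3, a vesicle-tethering synapsin, read 4.11, 7.79 and 3.49 on the knockdown arrays, against 10.21, 11.22 and 10.52 on the empty vector arrays (adjusted p = 0.074), and knockdown replicate 2 alone was above background. In all 3 genes every knockdown array was below every empty vector array. Of 15 genes of the inhibitory postsynapse Gphn fell, 3 were above background on all knockdown arrays and 7 on all empty vector arrays, and the median was -1.06. Gabarap, which links GABA receptors to microtubules and serves autophagy, had the opposite sign, at 11.38, 10.45 and 10.59 on the knockdown arrays, against 8.82, 8.66 and 8.91 on the empty vector arrays (4.03-fold, adjusted p = 0.0636). Of 24 glutamate receptor and scaffold genes (median -0.39) 0 were called, 4 lower and 1 higher at unadjusted p. Of the 8 above background in at least 1 group 2 were lower and 0 higher, beside 17% and 17.2% of all such genes. The AMPA receptor subunit Gria1 read 3.96, 4.88 and 4.09 on the knockdown arrays, against 8.21, 8.60 and 7.82 on the empty vector arrays (adjusted p = 0.0608).

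Voltage-gated channels, which carry the action potential, had a median of -0.73 over 29 genes, and 2 were above background on all knockdown arrays against 13 on all empty vector arrays. The sodium channel subunit Scn3b read 5.15, 7.26 and 4.99 on the knockdown arrays, against 11.02, 8.13 and 10.64 on the empty vector arrays (adjusted p = 0.0846). The potassium channel Kcnq3, which carries the M current, read 6.03, 6.03 and 6.92 on the knockdown arrays, against 9.24, 8.27 and 8.58 on the empty vector arrays (adjusted p = 0.111). Neither overlapped between the groups, and 0 of the 29 genes were called by limma, with 5 lower at unadjusted p. Of the 13 above background in at least 1 group 3 were lower and 0 higher, beside the same 17% and 17.2%. Of 59 genes of axon growth and guidance Sema3f alone passed, as a rise. The list's median was -0.71 against empty vector and -0.37 against wild-type. At unadjusted p 12 were lower and 4 higher. Of the 32 above background in at least 1 group 8 were lower and 4 higher, beside 17% and 17.2% of all such genes. Sema6d, a membrane-bound semaphorin, read 6.38, 5.73 and 6.45 on the knockdown arrays, against 9.53, 11.27 and 10.01 on the empty vector arrays (adjusted p = 0.0608). Of 14 class 3 semaphorins and their receptors Sema3f was also the only one above background on all knockdown arrays.

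No gene of the 3 cytoskeletal lists passed the test. Of 38 neurofilament, tubulin and microtubule genes 22 were above background on all knockdown arrays and 30 on all empty vector arrays. The median was -0.41 against empty vector but -0.04 against wild-type, and 0 were called, with 6 lower and 0 higher at unadjusted p. Of the 30 above background in at least 1 group 5 were lower, which is near the 17% of all such genes. Nefm, the medium neurofilament subunit, read 4.81, 7.27 and 4.53 on the knockdown arrays, against 8.71, 9.54 and 9.09 on the empty vector arrays (at least 2.59-fold, adjusted p = 0.0719). Map6, which stabilises microtubules against cold, read 6.71, 6.62 and 5.39 on the knockdown arrays, against 9.31, 9.19 and 8.73 on the empty vector arrays (adjusted p = 0.0743). Neither gene overlapped between the groups. Of 42 genes of actin and its regulators 8 were lower and 1 higher at unadjusted p (median -0.25). Of the 30 above background in at least 1 group 7 were lower and 1 higher, beside 17% and 17.2% of all such genes. Of 42 kinesin, dynein and dynactin genes 3 were lower and 2 higher (median 0.07, and -0.33 with centred arrays). Of the 27 above background in at least 1 group 2 were lower and 1 higher. Limma called 0 of either list. The formin Diaph1, which elongates actin filaments, read 10.37, 10.06 and 9.77 on the knockdown arrays, against 8.43, 8.93 and 7.99 on the empty vector arrays (3.07-fold higher, adjusted p = 0.104). Kif2a, a kinesin that takes microtubules apart, read 5.44, 5.56 and 7.78 on the knockdown arrays, against 9.95, 10.87 and 9.95 on the empty vector arrays (adjusted p = 0.0719), with knockdown replicate 3 alone above background in its group.

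Ribosomal and respiratory chain RNAs, a known part of axonal RNA, were mostly above background in both groups. Of 44 cytosolic ribosomal protein genes 38 were above background on all knockdown arrays and 40 on all empty vector arrays. Groups did not overlap in 28 of them with knockdown higher and in 1 with knockdown lower, against 13.3% and 8.43% of all genes. Limma called 0, with 13 higher and 1 lower at unadjusted p, all among the 41 above background in at least 1 group (17.2% and 17% of all such genes). Fau, a ribosomal protein fused to a ubiquitin-like domain, read 12.40, 11.96 and 12.05 on the knockdown arrays, against 9.89, 9.998 and 10.46 on the empty vector arrays (4.06-fold, adjusted p = 0.0647). Rps19, mutated in Diamond-Blackfan anaemia in humans, read 12.84, 12.88 and 13.09 on the knockdown arrays, against 10.62, 11.62 and 11.02 on the empty vector arrays (3.61-fold, adjusted p = 0.0681). The list median was 0.37 against empty vector and 0.24 against wild-type, and -0.03 against empty vector with the arrays centred on the genes above background. Of 72 oxidative phosphorylation genes 65 were above background on all knockdown arrays and 62 on all empty vector arrays, with 14 higher and 0 lower at unadjusted p and 0 called. All 14 were among the 67 above background in at least 1 group, a share near the 17.2% of all such genes, of which 17% were lower. Atp5e, the epsilon subunit of ATP synthase, read 12.34, 12.42 and 12.55 on the knockdown arrays, against 10.48, 9.78 and 11.10 on the empty vector arrays (3.95-fold, adjusted p = 0.0743). Cox8a, a subunit of cytochrome c oxidase, read 10.99, 10.88 and 10.96 on the knockdown arrays, against 9.22, 9.86 and 9.22 on the empty vector arrays (2.85-fold, adjusted p = 0.0791). The median of this list was 0.31 against empty vector, 0.02 against wild-type and -0.09 against empty vector after centring.

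Mitochondrial ribosomal proteins, which make the mitochondrially encoded respiratory subunits, had 32 of 74 members above background on all knockdown arrays and 44 on all empty vector arrays. Their median was 0.34 against empty vector but -0.15 against wild-type and -0.06 after centring. Limma called 0, with 14 higher and 4 lower at unadjusted p. Of the 47 above background in at least 1 group 13 were higher and 2 lower, beside 17.2% and 17% of all such genes. Mrpl55 read 9.41, 8.99 and 8.77 on the knockdown arrays, against 7.75, 7.45 and 7.35 on the empty vector arrays (2.91-fold, adjusted p = 0.0636). Translation factors had a median of -0.22 over 43 genes and -0.59 against wild-type, with 8 lower and 3 higher at unadjusted p. Of the 36 above background in at least 1 group 7 were lower, near the 17% of all such genes, and 3 higher. Eif4e, which binds the messenger RNA cap, read 7.004, 5.66 and 6.14 on the knockdown arrays, against 9.48, 9.65 and 8.47 on the empty vector arrays (at least 2.76-fold, adjusted p = 0.0647). Eif3k, a subunit of the scaffold that recruits the small ribosomal subunit, read 9.82, 10.25 and 10.02 on the knockdown arrays, against 8.69, 8.27 and 8.75 on the empty vector arrays (2.75-fold, adjusted p = 0.0743). The groups of both genes were apart, in opposite directions.

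**Figure D4:**
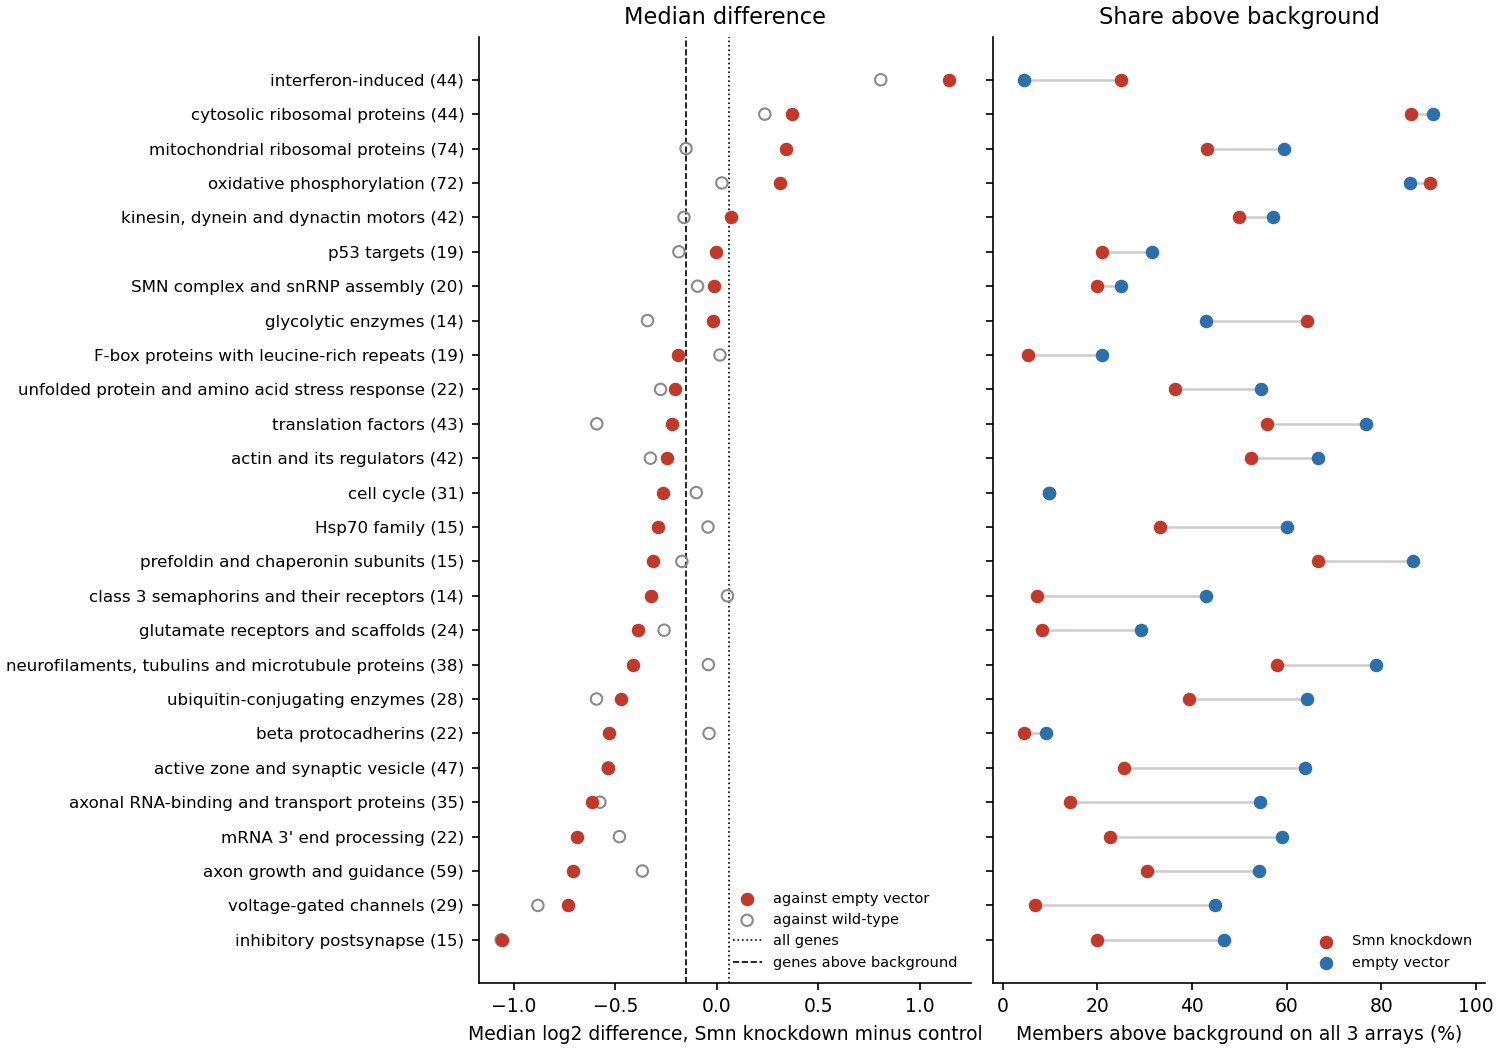
Pathway and family gene lists with at least 14 measured genes (number in parentheses), without the cell type markers. Left, median log2 difference of Smn knockdown against empty vector (filled) and wild-type (open, hidden where equal), with the medians of all genes (0.06, dotted) and of the 5176 genes above background in at least 1 group (-0.15, dashed). Right, percent of members above background on all 3 arrays of knockdown (red) and empty vector (blue). The medians take in members below background. Among these lists interferon-induced genes lie highest at 1.14 and inhibitory postsynapse genes lowest at -1.06. With arrays centred on the genes above background the medians near 0.3 for ribosomal and oxidative phosphorylation genes fall to between -0.09 and -0.03.

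The partners of Smn showed no call. Of 20 genes for the SMN complex or for snRNP assembly 4 were above background on all knockdown arrays and 5 on all empty vector arrays. The median was -0.01. At unadjusted p 1 was lower and 2 higher, against 7.37% and 10.9% of all genes. Strap, a partner of the SMN complex also known as Unrip, read 6.45, 8.60 and 7.70 on the knockdown arrays, against 10.004, 10.004 and 9.74 on the empty vector arrays (at least 3.3-fold, adjusted p = 0.0791), with 2 of 3 knockdown arrays above background. Of 35 axonal RNA-binding and transport proteins, which carry RNA granules along microtubules, 5 were above background on all knockdown arrays and 19 on all empty vector arrays. Their median was -0.62 against empty vector and -0.58 against wild-type, and 0 were called (4 lower and 1 higher at unadjusted p). Of the 19 above background in at least 1 group 2 were lower and 0 higher, beside 17% and 17.2% of all such genes. Nova1, a neuronal splicing factor, read 6.82, 6.28 and 4.14 on the knockdown arrays, against 8.39, 7.92 and 7.64 on the empty vector arrays (adjusted p = 0.198). Fxr1, a relative of the fragile X protein, read 10.60, 6.59 and 10.34 on the knockdown arrays, against 6.08, 4.30 and 6.47 on the empty vector arrays (adjusted p = 0.15), with 2 of 3 knockdown arrays and no empty vector array above background. Of 22 genes of mRNA 3' end processing Cpsf3 fell, and 5 were above background on all knockdown arrays and 13 on all empty vector arrays (median -0.69). Cpsf7, part of the factor that selects the cleavage site, read 7.70, 6.94 and 7.22 on the knockdown arrays, against 8.23, 8.31 and 8.84 on the empty vector arrays (adjusted p = 0.12).

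Most relatives of the called genes did not pass the test. At unadjusted p under 0.05, 7.37% of all genes were lower and 10.9% higher. Of genes above background in at least 1 group 17% were lower and 17.2% higher. Among these were 19 ubiquitin-conjugating enzymes (3 lower and 1 higher) and 13 prefoldin and chaperonin genes (3 and 3). There were also 9 Hsp70 family genes (3 and 0) and 3 beta protocadherins (2 and 1). Of 28 ubiquitin-conjugating enzymes Ube2h fell, 4 were lower and 1 higher at unadjusted p (median -0.47), and Ube2d3, another such enzyme, read 6.42, 8.06 and 8.43 on the knockdown arrays, against 10.40, 11.42 and 10.30 on the empty vector arrays (at least 5.47-fold, adjusted p = 0.0687), with 2 of 3 knockdown arrays above background. Of 15 prefoldin and chaperonin genes Pfdn1 rose, and 3 were higher and 3 lower at unadjusted p (median -0.31). The prefoldin subunit Pfdn5 read 11.78, 11.34 and 11.63 on the knockdown arrays, against 9.94, 9.76 and 10.25 on the empty vector arrays (3.04-fold, adjusted p = 0.0647). The chaperonin subunit Cct2 read 11.67, 11.90 and 11.74 on the knockdown arrays, against 12.32, 12.66 and 12.63 on the empty vector arrays (adjusted p = 0.149). Of 15 Hsp70 family genes Hspa13 fell and 3 were lower and 0 higher at unadjusted p. The heat-inducible Hspa1b read 5.47, 7.51 and 5.66 on the knockdown arrays, against 8.95, 9.43 and 9.61 on the empty vector arrays (adjusted p = 0.0647), and knockdown replicate 2 alone was above background. The constitutive Hspa8, the uncoating ATPase, read 13.37, 13.51 and 13.40 on the knockdown arrays, against 14.25, 13.98 and 14.18 on the empty vector arrays (adjusted p = 0.189). Of 22 beta protocadherins Pcdhb17 fell, 3 were higher and 3 lower at unadjusted p, and 13 were above background on none of the 6 arrays. Pcdhb20 read 4.44, 5.13 and 3.69 on the knockdown arrays, against 10.07, 8.92 and 8.66 on the empty vector arrays (adjusted p = 0.0658). Of 9 genes listed with the Spred and Sprouty inhibitors, Rasa1 of neither family among them, Spred2 fell and the median was -0.57. Of 19 F-box proteins with leucine-rich repeats Fbxl17 fell and the median was -0.19.

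Markers of other cell types were measured on the same arrays, and those of microglia and macrophages differed most. The mean level of 16 such markers was 8.97, 7.15 and 6.59 on the knockdown arrays, against 5.79, 6.10 and 5.92 on the empty vector arrays and 10.06, 7.52 and 6.83 on the wild-type arrays (knockdown against empty vector, two-sided exact permutation p = 0.1, the smallest possible). For this mean empty vector was the group apart, and knockdown overlapped with wild-type. The median difference was 1.65 against empty vector and -0.32 against wild-type, 0 of 16 were called, and 5 were above background on all knockdown arrays and 1 on all empty vector arrays. Of the defining markers Aif1, Ptprc and Itgam were above background on none of the 6 arrays. Among the knockdown arrays replicate 1 had the highest mean both of these markers and of the interferon-induced genes (7.99, 7.03 and 7.04 on the knockdown arrays, against 5.78, 5.93 and 6.08 on the empty vector arrays), and their part in the interferon values was not tested. The interferon list averaged 6.63, 5.97 and 5.81 on the wild-type arrays, where replicate 1 again had the highest mean of both lists. Trem2, a microglial lipid receptor, read 10.19, 9.39 and 9.47 on the knockdown arrays, against 7.75, 8.52 and 6.93 on the empty vector arrays and 7.83, 7.27 and 7.06 on the wild-type arrays (adjusted p = 0.0883). Unlike the mean of its list, Trem2 was higher on every knockdown array than on any wild-type array. Fabp7, a fatty acid-binding protein of radial glia, read 13.32, 12.78 and 13.76 on the knockdown arrays, against 5.45, 9.82 and 9.54 on the empty vector arrays and 11.44, 13.96 and 11.36 on the wild-type arrays (adjusted p = 0.0899). Empty vector was the lowest group, with 2 of 3 arrays above background. The mean over 13 astrocyte and radial glia markers overlapped between the groups (6.92 to 7.85 on knockdown and 6.37 to 7.18 on empty vector arrays, exact permutation p = 0.4). The mean over 11 markers of the oligodendrocyte lineage was 6.48 to 6.68 on knockdown and 6.21 to 6.35 on empty vector arrays (exact permutation p = 0.1), all below background levels. Of 12 endothelial markers 10 were above background on none of the 6 arrays.

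Against wild-type in place of empty vector, 18 genes (0.099%) were called, and between empty vector and wild-type 0 genes were (603, or 3.31%, at unadjusted p, limma). These comparisons share arrays with the main one, so their values are given side by side. Erc2 differed by -5.31 against empty vector and -5.37 against wild-type. For Gphn these were -4.68 and -4.49, for Gbp3 4.58 and 4.49, for Pfdn1 2.74 and 2.45, and for Sema3f 1.98 and 1.85. Among the 32 calls the choice of control mattered most for Nr1d2 (-2.47 and -0.07), Nav2 (-2.30 and -0.75), Kantr (-3.43 and -1.65) and Grip1 (-4.23 and -2.18). In these 4 the wild-type arrays were lower than the empty vector arrays.

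The same knockdown was measured in the somatodendritic compartment, where limma called 5088 genes (28%), 2267 higher and 2821 lower. Of the 32 axonal calls 16 were called there in the same direction and 1, Nr1d2 (0.43), in the opposite one, and 31 were above background on every somatodendritic empty vector array. Erc2 and Gphn fell in both compartments, by 5.31 and 4.68 in axons and by 1.75 and 2.13 in the somatodendritic arrays. Their axonal knockdown values were below background, and the axonal bounds against it were -2.31 and -1.43. Whether Gphn fell more in axons than in the somatodendritic arrays therefore cannot be read. Others were near 0 in the somatodendritic arrays: Cpsf3 was at 0.00 (adjusted p = 1), Ctu2 at -0.23 (adjusted p = 0.221), Ube2h at -0.09 (adjusted p = 0.613) and Sema3f at 0.05 (adjusted p = 0.749). Gbp3 rose by 5.78 there. The difference between the compartments, tested as an interaction over all 18 arrays, passed for 30 of the 32 genes, against 6.77% of all genes, at adjusted p up to 0.0175. With a weight for each compartment, 28 passed. It did not pass for Gbp3 (adjusted p = 0.256) and Calu (adjusted p = 0.0851). The arrays of a compartment share a distribution of values that differs from that of the other compartment. The test shares its axonal arrays with the calls, which were picked by their axonal p. Their share is therefore not comparable with that of all genes. Without compartment weights the test takes 1 spread per gene. The median SD was 0.679 on axonal and 0.0781 on somatodendritic knockdown arrays, over genes above background in at least 1 axonal group.

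**Figure D5:**
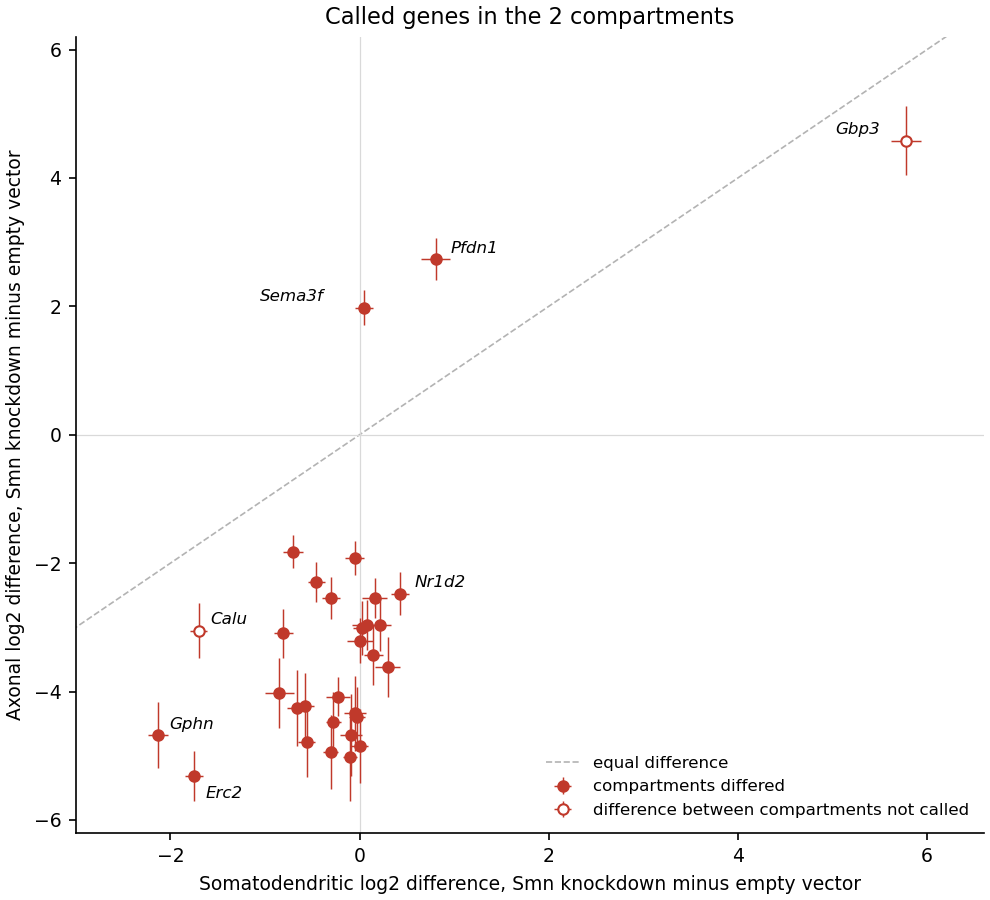
Axonal (vertical) against somatodendritic (horizontal) log2 difference, Smn knockdown minus empty vector, of the 31 named axonal calls, with limma standard errors as bars. Open circles are the 2 genes whose difference between compartments was not called. The named falls lie at -1.82 to -5.31 in axons, and apart from Gphn, Erc2 and Calu, which lie further left, between -0.85 and 0.43 in the somatodendritic arrays.

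The lowest p of that test belonged to Dtx3l, Ccl5, Ctu2, Oasl2 and Tmtc2. Dtx3l, a ubiquitin ligase induced by interferon, read 5.56, 5.54 and 5.71 on the axonal knockdown arrays, against 5.23, 5.79 and 5.48 on the axonal empty vector arrays, all below background. In the somatodendritic arrays it averaged 8.89 with the knockdown and 4.94 with the empty vector. The chemokine Ccl5 averaged 8.83 with the knockdown and 5.40 with the empty vector in the somatodendritic arrays, and was below background on the 6 axonal arrays. Oasl2, a relative of the oligoadenylate synthetases, averaged 9.85 with the knockdown and 3.89 with the empty vector there, and was also below background in axons. Tmtc2, a mannosyltransferase of the endoplasmic reticulum, averaged 6.89 with the knockdown and 7.96 with the empty vector there, against an axonal difference of 1.32 below background. Whether these 4 differ in axons cannot be read at this signal.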

How the data were processed

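RNA of 18 samples, axonal and somatodendritic, was measured on Affymetrix mouse arrays. The deposited values are log2 signals per probe set, normalised by the authors; their software was not given in the sources used here, and each compartment has a value distribution of its own. Of 45101 probe sets, 64 controls and 11 with missing values were left out; 34945 had 1 symbol in the platform annotation, 932 several and 9211 none. Groups come from the sample labels. Knockdown arrays are numbered apart from the others in their titles, so that numbering and group cannot be told apart.

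From these log2 values as deposited, limma (3.58.1, in R 4.3.3) was fitted to the 9 axonal arrays with group means, and to all 18 for the difference between compartments, with Benjamini-Hochberg adjustment over 18191 genes. The script was tested on simulated data. Genes named are the calls, Smn1, the 6 largest differences in each direction among genes above background in 1 group only, the 5 lowest p between compartments, and, of each list, at most 4 members in order of p. Same-numbered arrays of different axonal groups had residual correlations from -0.191 to 0.0848. With 3 arrays a group these cannot settle whether such arrays were paired. Pairing of axonal with somatodendritic arrays was not tested, and the fit to all 18 takes them as independent. With 3 arrays a group, the smallest two-sided exact permutation p is 0.1, and the number of arrays limits the precision. The comparison, members and gene lists were chosen with earlier results of these data known. Alternatives were the arrays fitted, variance model, scaling, probe set and background level. Promoter windows are those of RefSeq.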

Additional observations from a re-analysis of the deposited data

Results flagged for a closer look

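The effect of the knockdown differed between axonal and somatodendritic arrays for 1231 genes (6.77% of those tested, limma interaction term, Benjamini-Hochberg). For the genes named above that passed, the axonal minus the somatodendritic log2 difference is given here. A negative value means a more negative knockdown minus empty vector difference in axons. Of the 29 called falls 27 were above background on no axonal knockdown array, so the size of their difference cannot be read. With values set to background the axonal differences of Nr1d2, Nav2, Jagn1 and Dcaf12 turned in sign. Among called presynaptic, postsynaptic and surface genes it was -3.56 for Erc2, -2.55 for Gphn, -3.65 for Grip1 and -4.37 for Pcdhb17. Among called RNA and translation genes it was -4.85 for Cpsf3, -3.85 for Ctu2, -3.03 for Pa2g4, -4.29 for Rpl7l1 and -3.58 for Kantr. Among called chromatin, transcription and cell cycle genes it was -4.20 for Chd6, -2.70 for Chd8, -3.17 for Med1, -3.59 for Cks1b, -3.04 for Rlf and -2.90 for Nr1d2. Among called folding, degradation and secretory genes it was -4.22 for Hspa13, -4.59 for Ube2h, -4.63 for Fbxl17, -2.25 for Herpud2, -1.12 for Dcaf12 and -1.87 for Jagn1. Among called signalling, cytoskeletal and transport genes it was -2.29 for Gnb1, -4.91 for Spred2, -3.18 for Agtpbp1, -3.21 for Oxsr1, -3.91 for Slc35e3 and -1.84 for Nav2. The axonal rises of Pfdn1 and Sema3f exceeded the somatodendritic differences by 1.93 each. Among genes above background in 1 axonal group only it was 5.47 for Bcan, 3.17 for Ifi27l2a, -5.76 for Minar2, -5.31 for Negr1 and -4.86 for Ppp1r13b, none of which was called in axons. Ifi27l2a was above background on no somatodendritic knockdown or empty vector array, so its somatodendritic difference cannot be read. For the lowest p of the test it was -3.23 for Ccl5, -3.85 for Dtx3l, -4.56 for Oasl2 and 2.39 for Tmtc2, with axonal signals below background on all 6 arrays compared. The distribution of values differs between the compartments, and the axonal knockdown arrays spread more than the somatodendritic ones.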

How the results depend on the processing

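The number of genes called in knockdown axons, 32 (3 higher and 29 lower), depended on the fit. It was 0 (0 higher and 0 lower) with only the 6 arrays of the 2 groups, and 0 with the title number as a replicate block. Whether arrays of a number belong together was not settled. It was 3763 (2282 higher and 1481 lower) with all 18 arrays sharing 1 spread, 18 (1 and 17) with wild-type as control, 743 (431 and 312) with both controls averaged, 19 (1 and 18) with a mean-variance trend, 18 (2 and 16) with a robust prior, 224 (6 and 218) with centred arrays, 16 (2 and 14) with the probe set brightest in axons and 408 (140 and 268) without dim genes, where 5176 genes were tested. Array weights (35) and leaving out ambiguous probe sets (29) changed it little. Leaving out 1 array gave 1 to 190 calls, 0 to 16 higher and 1 to 174 lower; Erc2 was called in all 9 of these fits. Another 2 settings were chosen after seeing the data. Leaving out knockdown replicate 1 and empty vector replicate 2, each with the fewest genes above background in its group, gave 10 (0 and 10). Setting values below background to background gave 12 (4 and 8). Only 5 of the 32 calls were among these 12, namely Ctu2, Gnb1, Pa2g4, Pfdn1 and Sema3f. Erc2, Gphn and Gbp3 were not. Beyond the changes of construction named, the cause was not tested.

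Differences turned in sign with the probe set brightest in axons for Herpud2 (0.21), Rlf (1.04), Rpl7l1 (0.43), Nav2 (0.39) and Dcaf12 (0.89). They turned with values set to background, where the higher background of the knockdown arrays enters, for Nr1d2 (0.062), Nav2 (0.25), Jagn1 (0.046), Dcaf12 (0.38) and Smn1 (0.66). Lgals3 was at -0.38 against wild-type, Dtx3l at -0.30 and Ccl5 at -0.20 with centred arrays, and Dtx3l at -0.032 without empty vector replicate 1.

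Genes above background in both groups numbered 3876 at the 90th and 792 at the 99th percentile. Those above background on every empty vector array and no knockdown array numbered 860 with centred arrays, and those on every knockdown array and no empty vector array 8 at the 99th percentile and 9 with centred arrays. The 1231 differences between compartments became 814 with compartment weights, 1946 against wild-type and 2511 against both controls, and ranged from 871 to 2643 with 1 axonal array left out (2643 without empty vector replicate 2, 2355 without knockdown replicate 2). For RNAs below background, signal and not replicate number limits what can be read.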

Other observations

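Limma called 0 genes of the lists that follow, stress, growth and cell cycle genes among them. At unadjusted p under 0.05, 10.9% of all genes were higher and 7.37% lower. Among genes above background in at least 1 group these shares were 17.2% and 17%. Of 22 genes induced by unfolded proteins or by amino acid stress 4 were lower and 1 higher at unadjusted p (median -0.21, beside 0.06 over all genes). Of the 12 above background in at least 1 group 3 were lower and 0 higher. Chac1, a glutathione-degrading enzyme induced by amino acid stress, read 7.29, 8.40 and 7.46 on the knockdown arrays, against 9.93, 10.15 and 10.59 on the empty vector arrays and 9.55, 7.30 and 9.70 on the wild-type arrays (at least 4.53-fold lower than empty vector, limma adjusted p = 0.109). Of 19 p53 targets 1 was higher and 0 were lower at unadjusted p and the median was near 0 (-0.004). That gene, Rrm2b, a ribonucleotide reductase subunit for DNA repair, read 8.92, 8.39 and 7.999 on the knockdown arrays, against 6.58, 7.01 and 6.21 on the empty vector arrays, without overlap (adjusted p = 0.0745).

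Glycolytic enzymes had 9 of 14 members above background on all knockdown arrays and 6 on all empty vector arrays, with 1 higher and 0 lower at unadjusted p (median -0.02). Of 31 cell cycle genes 4 were higher and 1 lower at unadjusted p in axons, with 3 above background in each group (median -0.27), while the somatodendritic median was -0.95. Mcm3, a subunit of the replicative helicase, read 8.95, 8.16 and 9.47 on the knockdown arrays, against 6.87, 7.30 and 7.32 on the empty vector arrays (adjusted p = 0.137). Of 11 long noncoding RNAs 5 were above background on all knockdown arrays and 8 on all empty vector arrays, with 1 higher and 0 lower at unadjusted p. Gas5, which hosts small nucleolar RNAs, read 12.88, 12.57 and 12.88 on the knockdown arrays, against 11.51, 11.73 and 11.57 on the empty vector arrays and 12.84, 12.05 and 11.86 on the wild-type arrays (2.26-fold, adjusted p = 0.114). Of 12 genes of neurotrophic factor receptors and the factor Bdnf 1 was above background on all knockdown arrays and 4 on all empty vector arrays (median -0.30). At unadjusted p 1 was higher and 2 lower, Bdnf among them.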
